A study of Caenorhabditis elegans with 2 samples.

Results

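The genes described here are 32 C. elegans genes of the vacuolar proton pump and the lysosome, a list of symbols found in full in the Ensembl WBcel235 annotation, among 19985 protein-coding genes in all. They are 12 genes of the membrane sector of the pump (V0, with its accessory subunits), 9 of its cytosolic sector (V1) and 11 other lysosomal genes. The members were listed by function and not by any measured value, although earlier results of these data were known when the list was made. RefSeq product names gave 20 of the 21 pump genes as V-type proton ATPase subunits, and the other, vha-20, as a renin receptor-like protein. The binding of LET-607, a membrane-anchored bZIP transcription factor of the CREB3 family, was measured by chromatin immunoprecipitation and sequencing with an anti-GFP antibody. The material was whole hermaphrodite young adults of strain YL529, which stably express LET-607 with GFP and FLAG fused at its C-terminus, collected 67 h after release of starved first-stage larvae. There was 1 group of 2 biological replicates, and no untagged animals, other conditions or expression values were analysed here. Whole animals were used, so a peak cannot be placed in a tissue. The sources used here do not give the promoter that drives the transgene, and both replicates came from the same line. In mammalian CREB3 proteins the part that is released to the nucleus is the N-terminal one, whereas the tag used here is at the other end.

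The vacuolar ATPase pumps protons into lysosomes, endosomes and secretory compartments. Its V1 sector hydrolyses ATP in the cytosol, and its V0 sector carries protons through the membrane by a ring of c subunits that turns against subunit a. The acid it makes activates the cathepsin proteases, which are made in the endoplasmic reticulum and pass through the Golgi. In C. elegans the pump is known for its work in the intestine, the excretory cell, the epidermis and at synapses, and several subunits have more than 1 gene. In mammals the factor TFEB raises the transcription of lysosome and pump genes together, and hlh-30 is the worm gene of that family.

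LET-607 peaks of the authors' final list, which was thresholded on reproducibility between replicates (IDR), stood at 8 of the 32 genes. These were vha-1, vha-2, unc-32 and vha-20 of V0, vha-12 and vha-13 of V1, and the protease genes cpl-1 and asp-1. A gene was taken as bound if its promoter window, from 1000 bp before its annotated 5′ end to 200 bp after it, held the summit of a final-list peak. Peaks in that list were exactly the 2372 strongest of the pooled data. A place in it therefore does not by itself show that the replicates agree at that peak. The 8 genes made 25% of the members, against 7.76% of all protein-coding genes. By sector, 4 of 12 V0 genes (33.3%), 2 of 9 V1 genes (22.2%) and 2 of 11 lysosomal genes (18.2%) were bound. The differences between these groups were not tested, and no test was run on the list. With only 2 replicates merged into 1 final list, these counts carry no error between replicates beyond the values per replicate given for each gene.

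Most of the unbound members had a weaker peak. The relaxed list of the pooled data holds 26789 peaks, the final ones among them. In it 29 of the 32 genes (90.6%), the 8 bound genes and 21 others, had a summit in the same window, against 36.4% of all genes. The relaxed list of replicate 1 (26463 peaks) gave 30 of 32 against 35.8%, and that of replicate 2 (22592 peaks) gave 25 of 32 against 32.8%. In both replicates' lists at once there were 25 of 32 members, again more than the 23.0% of all genes. This counts a summit anywhere in the window, and the summits of the 2 replicates need not coincide. At lmp-1 the strongest lay 284 bp upstream in replicate 1 and 988 bp upstream in replicate 2. All 11 lysosomal genes had a pooled relaxed peak, as had 10 of 12 V0 genes and 8 of 9 V1 genes. The median over the 32 genes of the best pooled rank was 4654, with genes without a peak placed last. The median gene of the genome had no peak. Among only those genes that had a pooled peak, the median best rank was 4073 for 29 members and 7877.5 for 7282 genes. By their deposited description the relaxed lists hold background as well as peaks.

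**Figure D1:**
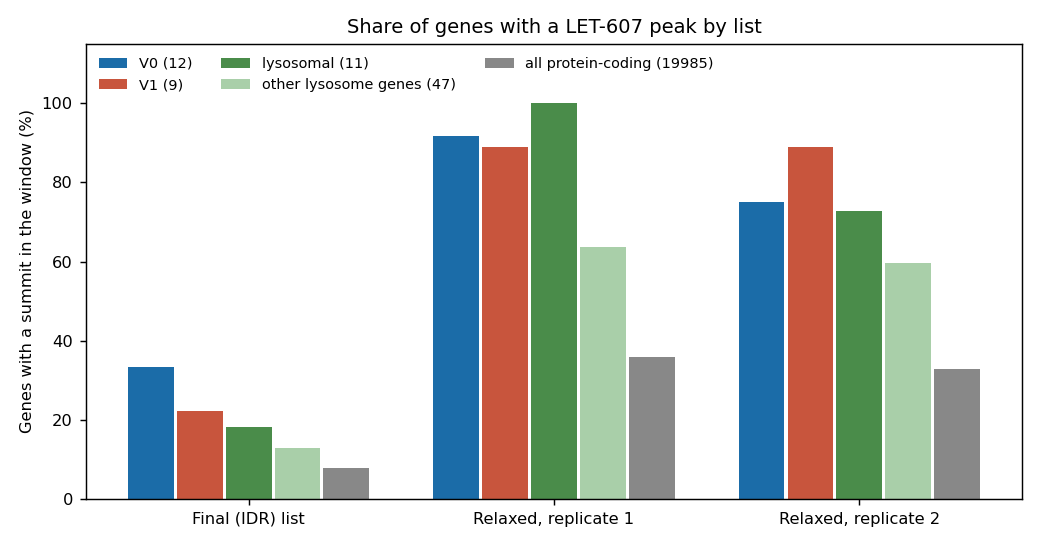
Percentage of genes (y axis) with a peak summit in the promoter window in the final list and in the relaxed list of each replicate (x axis). Bars are the V0, V1 and lysosomal genes, 47 other lysosome genes and all 19985 protein-coding genes. Each bar of the 3 member groups is higher than the grey bar of all genes, which stands at 7.76%, 35.8% and 32.8%.

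The peaks of the 8 bound genes were mostly weaker than the median peak of the final list. Their signal, a value per peak given by the authors with no stated scale, ran from 88.4 to 252. The whole list spans 78.2 to 13028, with a median of 122. It includes 23 peaks on mitochondrial DNA, which were kept in the ranks and in the shares of all peaks. The median signal of the 8 bound members was 100 and their median rank 1640 of 2372. For the best peaks of all 1550 bound genes these were 130 and 1076. Only vha-1, vha-12 and vha-13 stood among the 1186 strongest peaks, where 4.25% of all genes had a summit and 3 of 32 members (9.38%) did. The other 5 bound members had signals between 88.4 and 101. The nearest member outside the threshold was vha-15, at 70.0 and pooled rank 2775, and the nearest inside was vha-20, at 88.4 and rank 1982.

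**Figure D2:**
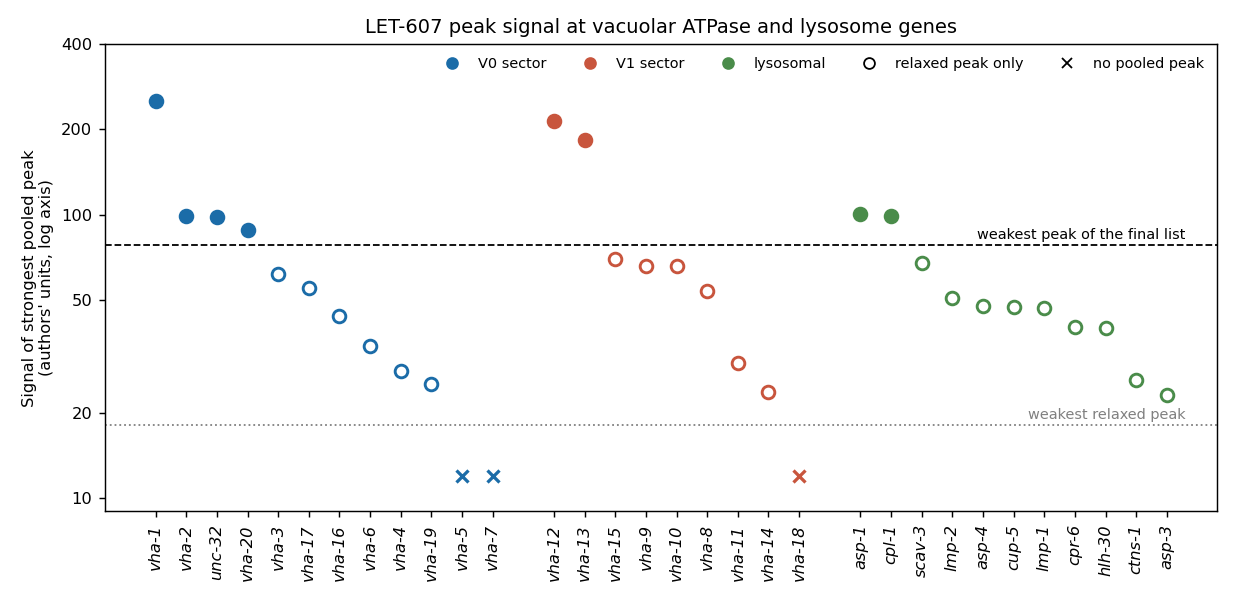
Signal of the strongest pooled peak in each gene's window (y axis, authors' units, log axis) for the 32 genes (x axis), ordered within V0, V1 and lysosomal genes. Filled circles are peaks of the final list, open circles are relaxed peaks only, and crosses are the 3 genes without a pooled peak, drawn at an arbitrary height. The dashed line marks the weakest final-list peak at 78.2 and the dotted line the weakest relaxed peak at 18.2, and vha-1, vha-12 and vha-13 lie well above it.

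The sequences under the summits are printed for 7 of the 8 bound genes, since 4 of these peaks lie in upstream intergenic DNA and 3 lie in the genes' own coding sequence. Each is the 101 bases centred on the final-list summit, read from the RefSeq genome of WBcel235 on the strand of the gene. The intervals are chrIII:9780772-9780872 (+) for vha-1, chrX:4190722-4190822 (+) for vha-12, chrIII:8905320-8905420 (+) for unc-32, chrV:16595505-16595605 (-) for cpl-1, chrIII:9782259-9782359 (+) for vha-2, chrX:14164417-14164517 (-) for vha-20 and chrV:19050662-19050762 (-) for asp-1. Capitals mark, on either strand, the CREB-type string TGACGT, its extension to GACGTG, the E-box CACGTG, the GATA-factor string TGATAA and the annotated start codon.
vha-1: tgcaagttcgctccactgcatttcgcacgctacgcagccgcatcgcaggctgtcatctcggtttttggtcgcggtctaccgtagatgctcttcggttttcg
vha-12: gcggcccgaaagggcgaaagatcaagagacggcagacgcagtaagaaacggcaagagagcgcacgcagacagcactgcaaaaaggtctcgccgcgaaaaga
unc-32: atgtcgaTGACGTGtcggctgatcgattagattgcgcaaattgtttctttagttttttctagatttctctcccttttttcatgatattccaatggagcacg
cpl-1: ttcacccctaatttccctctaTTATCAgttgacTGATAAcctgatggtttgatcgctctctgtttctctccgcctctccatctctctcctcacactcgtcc
vha-2: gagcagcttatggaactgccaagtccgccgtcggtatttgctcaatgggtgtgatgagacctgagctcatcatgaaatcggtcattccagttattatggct
vha-20: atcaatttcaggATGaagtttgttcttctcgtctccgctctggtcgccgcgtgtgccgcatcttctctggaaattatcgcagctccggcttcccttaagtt
asp-1: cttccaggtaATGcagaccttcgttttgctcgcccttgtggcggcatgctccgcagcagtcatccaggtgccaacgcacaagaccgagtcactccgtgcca

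Among the V0 genes, binding was strongest at vha-1 (WBGene00006910), which encodes a proteolipid c subunit of the rotating ring. Its peak (III, 9780760 to 9780892, ce11) had its summit 432 bp upstream in intergenic DNA, with signal 252 and rank 336. In replicate 1 the overlapping peak had signal 157 and rank 265, and in replicate 2 signal 97.6 and rank 477. Both replicates thus placed it well within their 2372 strongest peaks, with summits 8 bp and 21 bp from the final one. The same summit lay 468 bp upstream of sqv-3, a galactosyltransferase gene of proteoglycan synthesis whose 5′ end faces that of vha-1 at a distance of 900 bp.

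The second c subunit gene, vha-2 (WBGene00006911), starts 400 bp after the end of vha-1 and is known to be transcribed with it from 1 operon. It had a separate peak (III, 9782097 to 9782520) with signal 98.9 and rank 1664, whose summit lay in its own coding exon, 144 bp downstream of its start codon. The overlapping replicate peaks had signal 50.9 at rank 1947 and signal 56.2 at rank 1287, so both replicates held it. That summit was also 697 bp upstream of R10E11.6, which RefSeq names as an EF-hand protein. The 101 bases at the vha-2 summit matched a stretch of vha-3 at 82 positions (81.2%), and no source used here says how reads matching both copies were treated. The best match elsewhere in the genome to any other bound member's window was 61.4%, for asp-1 with asp-16. The remaining proteolipid genes were weaker. vha-3 had a relaxed pooled peak of signal 61.8 at rank 3312, with its summit 91 bp downstream of the 5′ end, and ranks 4616 and 3825 in the replicates. It is thus, like vha-2, a c subunit gene with its summit just inside the gene. The vha-3 summit lies beside the stretch that matches the vha-2 window (IV, 2315751 to 2315851). The 5′ end of vha-3 is at 2315945 on the minus strand. Whether the peaks of vha-2 and vha-3 are separate observations was not tested. vha-4, the gene of the c″ proteolipid, had rank 13340 in the pooled list, rank 9832 in replicate 1 and no peak in replicate 2.

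The 4 genes of subunit a, which lines the proton path and sets where the pump goes, differed from each other. unc-32 (WBGene00006768), the form known from the nervous system, was the one with a final-list peak (III, 8905158 to 8905581; signal 98.0, rank 1697), 245 bp upstream. The replicates differed there, with signal 75.9 at rank 1000 in replicate 1 and signal 24.8 at rank 5532 in replicate 2. vha-6, the form known from the intestine, had a relaxed pooled peak only, at rank 9077, with ranks 19595 and 7600 in the replicates. vha-5, known from the epidermis and excretory cell, had no pooled peak and 2 weak ones in replicate 1, the better at rank 22202. vha-7 had no peak in any of the 4 lists. No test was made of the differences among these genes.

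The remaining V0 genes encode single subunits. vha-20 (WBGene00010993), the gene of the accessory subunit called ATP6AP2 in mammals, had the weakest of the bound members' peaks (X, 14164255 to 14164678; signal 88.4, rank 1982). Replicate 1 gave it signal 37.0 at rank 3211 and replicate 2 signal 47.2 at rank 1703. The summit was 39 bp downstream of the 5′ end and 38 bp downstream of the start codon, in the coding exon. The 5′ end of vha-20 follows the end of sym-4 on the same strand by 133 bp. vha-16 (subunit d) had pooled rank 5699, with rank 2893 in replicate 1 and 18908 in replicate 2. vha-17 (subunit e) had pooled rank 3907 and replicate ranks 4905 and 7112, with its summit 349 bp upstream. vha-19, the gene of the accessory subunit Ac45, had a better rank in each replicate (6628 and 4420) than in the pooled list (16223). Its strongest summits lay 677 bp upstream in replicate 1 and 398 bp upstream in replicate 2.

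In V1 the bound genes were those of the ATP-hydrolysing core. vha-12 (WBGene00006921), which encodes subunit B, had its peak (X, 4190560 to 4190983) 322 bp upstream in intergenic DNA, with signal 214 and rank 448. Its replicate peaks were close to each other, with signal 111 at rank 518 and signal 96.4 at rank 490, and summits within 1 bp of the final one. vha-13 (WBGene00013025), which encodes the catalytic subunit A, had signal 183 and rank 601 (V, 14350915 to 14351338). Its replicate peaks had signal 113 at rank 502 and signal 76.1 at rank 734. That summit lay 582 bp upstream of vha-13 and within the annotated 3′ UTR of cept-2, a choline phosphotransferase gene that ends 226 bp before vha-13 on the same strand. With a window reaching only 500 bp upstream, vha-13 was not bound, and 1 of 9 V1 genes remained, against 6.24% of all genes.

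The other V1 genes stayed below the threshold, several of them narrowly. vha-15, a gene of the regulatory subunit H, was nearest with signal 70.0 and pooled rank 2775, at ranks 4558 and 3764 in the replicates. Its paralog vha-18 had no peak in any list. vha-9 (subunit F) followed at pooled rank 3013 with replicate ranks 3696 and 2796. vha-10 (subunit G) had pooled rank 3039 and replicate ranks of 2385 and 9454, the first just outside the 2372 strongest. Its 5′ end follows trpp-8 on the same strand by 103 bp. vha-8 (subunit E) had pooled rank 4073, and vha-11 (subunit C) and vha-14 (subunit D) had 11768 and 18201. Like vha-19, vha-14 had a better rank in each replicate (6943 and 8826) than in the pooled list. vha-11 lies 892 bp downstream of vha-3 on the same strand. All 8 V1 genes with a pooled peak also had a peak somewhere in the window in both replicates, but not always at the same place. The strongest summits of vha-14 lay 116 bp upstream in replicate 1 and 460 bp upstream in replicate 2. That of vha-11 was downstream of the 5′ end in replicate 1 and 386 bp upstream in replicate 2.

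Among the lysosomal proteases, asp-1 and cpl-1 were bound. asp-1 (WBGene00000214), an aspartyl protease gene known from the intestine, had signal 101 and rank 1622 (V, 19050500 to 19050923). Its overlapping replicate peaks had signal 52.5 at rank 1867 and signal 50.3 at rank 1531, so both replicates held it among their strongest. Its summit was in the coding exon, 40 bp downstream of the 5′ end, which is also the start of its coding sequence. cpl-1 (WBGene00000776), the cathepsin L gene, had signal 99.1 and rank 1659 (V, 16595343 to 16595766), with its summit 209 bp upstream. Replicate 1 gave signal 73.4 at rank 1065. In replicate 2 the peak with the nearest summit had signal 16.5 at rank 13975, and the strongest peak of the window had signal 38.0 at rank 2470, with its summit 36 bp upstream of the gene. The cathepsin D-type genes asp-4 and asp-3 had pooled ranks 4903 and 19040, and asp-3 had no peak in replicate 2.

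cpr-6, a cathepsin B gene, had only relaxed peaks in its window, the best at pooled rank 6690, but a final-list peak inside the gene. That summit (X, 6607628 to 6608051; signal 110, rank 1413) lay in an intron of cpr-6, 633 bp downstream of the 5′ end. It held rank 1390 in replicate 1 and rank 1550 in replicate 2, and lay in the window of no protein-coding gene. hlh-30, the TFEB-type gene, showed a like pattern. Its window at the outermost 5′ end held a relaxed peak at pooled rank 6771. A final-list peak (IV, 4028110 to 4028533; signal 126, rank 1133) lay in its intron 6629 bp further in, at ranks 1249 and 1451 in the replicates. That summit was 195 bp upstream of the start of another transcript, and in the windows of 2 of its 13 annotated transcripts. A second intronic peak of hlh-30 (signal 81.3, rank 2250) was 10627 bp from the 5′ end and held ranks 6494 and 1422. When every transcript's 5′ end was used in place of the gene's, 9 of 32 members were bound, hlh-30 included, against 8.47% of all genes.

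The membrane proteins of the lysosome had relaxed peaks alone. scav-3, which encodes a LIMP-2-type scavenger receptor, was nearest the threshold, with signal 67.6 at pooled rank 2909, rank 4114 in replicate 1 and rank 2218 in replicate 2. lmp-1 and lmp-2, of the LAMP type, had pooled ranks 4986 and 4405. For lmp-2 the replicates differed widely, with rank 21729 in replicate 1 and 1974 in replicate 2. These ranks belong to different summits, 152 bp upstream in replicate 1 and just downstream of the 5′ end in replicate 2. cup-5, the TRPML-type channel gene, had pooled rank 4930 and replicate 1 rank 3239, and no peak in replicate 2. ctns-1, the gene of the cystine transporter cystinosin, had pooled rank 15434, rank 24220 in replicate 1 and no peak in replicate 2.

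The replicates were compared by giving each its own list of 2372 strongest peaks. Replicate 1 alone gave 7 of 32 members bound (vha-1, vha-2, unc-32, vha-12, vha-13, cpl-1 and asp-1), against 7.79% of all genes. Replicate 2 alone gave 8, namely vha-1, vha-2, vha-20, vha-12, vha-13, asp-1, lmp-2 and scav-3, against 7.44%. Bound in both were 5 members (15.6%), which were vha-1, vha-2, vha-12, vha-13 and asp-1, against 5.73% of all genes. unc-32 and cpl-1 rested on replicate 1, and vha-20 on replicate 2, by this measure. The depth of the libraries is unknown, and whether it moves with these differences was not tested.

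**Figure D3:**
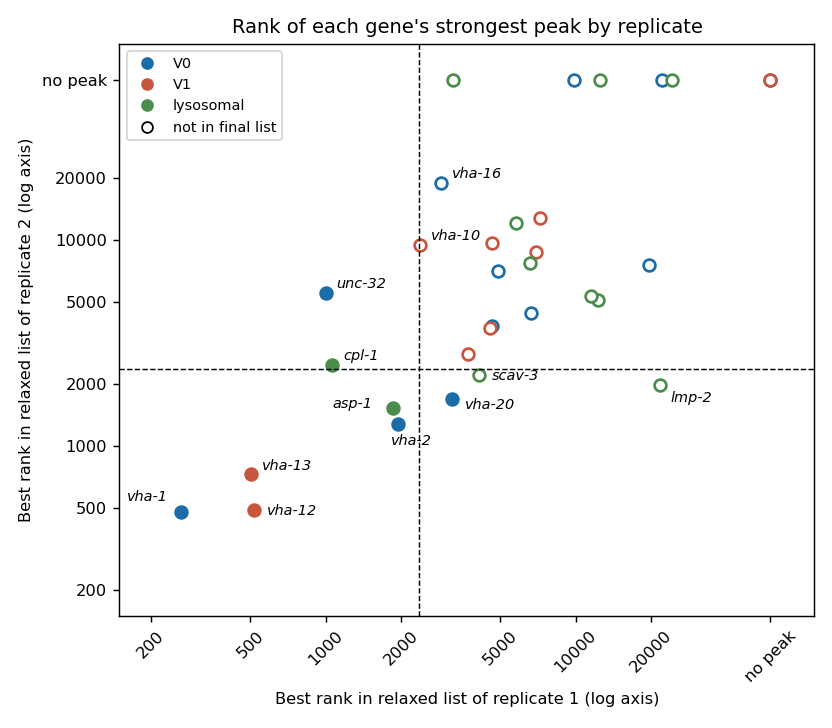
Rank of the strongest peak in each gene's window in the relaxed list of replicate 1 (x axis) and of replicate 2 (y axis), on log axes where a low rank is a strong peak. Circles are genes, filled if bound in the final list; genes without a peak in a replicate stand at the edge marked no peak, where vha-7 and vha-18 fall together. Dashed lines mark rank 2372 in each list, and 5 filled circles lie below both.

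The position of the summits was compared with that of all bound genes. Of the 8 bound members, 3 (37.5%) had their summit downstream of the 5′ end, against 110 of 1550 bound genes (7.10%). For vha-2, vha-20 and asp-1 that summit was in the gene's own coding exon, which held for 26 of the 1550 bound genes (1.68%). Their summits lay 145, 39 and 40 bp downstream of the 5′ end, and 144, 38 and 40 bp downstream of the start codon. The models of these genes thus have almost no sequence before the start codon, and the coding-exon count is not separate from the downstream count. In the pooled relaxed list 8 of 29 members with a peak (27.6%) had their strongest summit downstream of the 5′ end, against 1105 of 7282 genes (15.2%). This property was looked at after the positions were seen, and the difference was not tested. Upstream summits of the other bound members lay 209 bp to 582 bp from the 5′ ends, and the median over the 8 was 227 bp upstream, against 242 bp for all bound genes. Only vha-1 and vha-2 shared their summit with another protein-coding gene's window (25% of bound members, against 46.8% of bound genes). With each summit given to its nearest 5′ end alone, 8 members were still bound, against 5.95% of all genes.

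**Figure D4:**
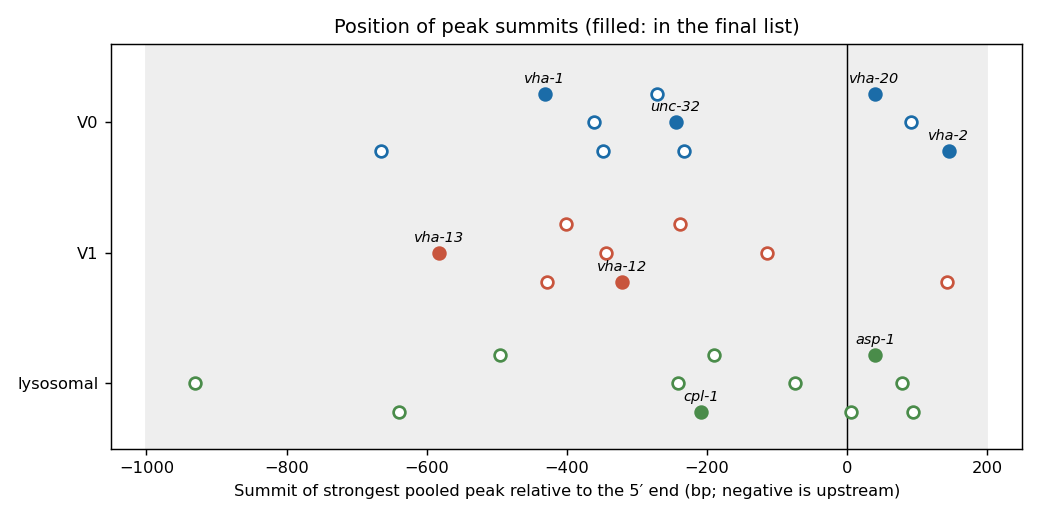
Position of the summit of the strongest pooled peak relative to the annotated 5′ end (x axis, in bp, negative upstream) for the 29 genes with a pooled peak, by group (y axis; the small vertical spread within a group has no meaning). Filled circles are peaks of the final list, and the grey band is the window from 1000 bp upstream to 200 bp downstream. The filled circles of vha-20, asp-1 and vha-2 lie to the right of the 5′ end, and those of the other 5 bound genes to its left.

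The strings known for CREB-type and TFEB-type factors were found at 1 and 0 of the member summits. TGACGT, the core recognised by CREB-type bZIP proteins, was searched on both strands within 50 bp of the summits. It stood at 1 of the 8 member peaks, that of unc-32, with its centre 40 bp upstream of the summit, where it overlaps GACGTG as TGACGTG. Of all final-list peaks, 8.22% held TGACGT and 7.04% held GACGTG. At vha-2, vha-20 and vha-13 no TGACGT lay within 1000 bp of the summit, and at vha-1 the nearest was centred 187 bp away. The longer forms TGACGTGG and TGACGTCA were at no member summit, against 1.90% and 0.970% of all peaks. The E-box CACGTG was at no member summit, against 8.31%, and the longer TCACGTGA at none, against 0.295%. The string TGATAA, known for GATA factors, was present at cpl-1 alone, in 2 copies on opposite strands, against 16.8% of all peaks. TGCAGT, a control string of the same letters as TGACGT, was at 2 member peaks (vha-1 and vha-12), against 6.58%. With 8 peaks, 1 peak is 12.5% of the members, and no share was tested. A match is a description of these letters and not evidence of a site. The windows at member summits had a median GC content of 51.5% (38.6% to 59.4%), against 44.6% for all final-list peaks.

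In the 300 bases around the 5′ end (250 upstream and 50 from the 5′ end on), TGACGT was found in 6 of the 32 members (18.8%), against 10.3% of all 19985 such promoters. Of these 6 genes, vha-12 alone was bound, and there the string lies 13 bp downstream of the 5′ end and not under the summit. The matches are shown with 10 bases to either side, on the gene's strand, with TGACGT or its reverse complement in capitals, to compare what surrounds the core. They lie at chrII:11438622-11438647 (-) for vha-6, chrX:4191097-4191122 (+) for vha-12, chrIII:7584062-7584087 (+) for cup-5, chrX:1125619-1125644 (+) for lmp-2, chrX:6607049-6607074 (+) for cpr-6 and chrX:6791096-6791121 (+) for asp-3.
vha-6: tcgacttcttTGACGTgcctgacgga
vha-12: tggctgccgtTGACGTcaaccaacca
cup-5: aaaaacaaatTGACGTgtctctagct
lmp-2: cttctactatTGACGTttgtgctcgg
cpr-6: ccgccgagtcACGTCAcaccatcaca
asp-3: aaatcggttgTGACGTttacaattat
The cores at vha-6, cup-5 and cpr-6 extend to TGACGTG on 1 strand, the form also seen at the unc-32 summit, and that at vha-12 to the palindrome TGACGTCA. GACGTG was in 3 member promoters (9.38%, against 6.66%) and TGACGTCA in 1 (3.12%, against 1.51%). CACGTG was in none, against 5.81%, nor was TCACGTGA, against 0.756%. TGATAA was in 8 (25%, against 30.2%), which were vha-4, vha-6, vha-19, vha-13, cpl-1, cpr-6, asp-3 and asp-4.

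A wider list of lysosome genes was set beside the members, with no test of the difference. Of 47 other lysosome genes found in the annotation, 6 (12.8%) had a final-list summit, against 7.76% of all genes. They were lipl-2 (a lysosomal lipase; signal 134, rank 1020), scav-1 (a scavenger receptor; signal 133, rank 1031), cpr-4 (a cathepsin B; signal 133, rank 1042), cpz-1 (a cathepsin Z; signal 106, rank 1494), mxl-3 (signal 92.4, rank 1865) and glo-4 (signal 80.0, rank 2299). mxl-3 encodes a repressor of lysosomal lipase genes, and glo-4 acts in the making of lysosome-related gut granules. A pooled relaxed peak was found at 29 of the 47 (61.7%), below the 90.6% of members and above the 36.4% of all genes. Lipases lipl-1, lipl-3 and lipl-4, the Niemann-Pick type C gene ncr-1 and the lysine and arginine transporter gene laat-1 had no pooled peak. In 1 replicate, however, lipl-1 (rank 12841 in replicate 2) and lipl-4 (rank 25460 in replicate 1) had a peak. Of their families, lipl-5 had pooled rank 3075 and replicate 1 rank 1941, and ncr-2 had pooled rank 26448. All of these unbound genes were picked for mention after their values were seen.

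Other ways of joining peaks to genes left the count of bound members between 7 and 9. A window reaching 2000 bp upstream gave 8 members, against 10.1% of all genes, and any overlap of the peak interval with the window gave 8, against 8.48%. For the members without a final-list summit in the window, the nearest one lay 633 bp (cpr-6) to 87691 bp (scav-3) from the 5′ end. The next largest distances were at vha-18 (64427 bp) and vha-16 (44869 bp), and all of these summits lay downstream. Such distances were not compared with those of all genes. A final-list summit was close but beyond the window at vha-17 (940 bp downstream, in an intron of nspg-11) and vha-10 (1167 bp downstream).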

How the data were processed

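ChIP-seq peak lists of 2 biological replicates of 1 group were used, 4 lists on build ce11. Per the deposited file descriptions, each replicate's alignments gave a relaxed list, both together gave the pooled one, and the optimal IDR list was derived from these 3. No source used here names the aligner or the peak caller. The signal per peak, deposited by the authors without a stated scale, was read within a list only. The deposited −log10 q-value was tied at 3.65 for 2252 of 2372 final peaks and was not used. The final list was exactly the 2372 strongest pooled peaks. No read counts were analysed here, so depth is unknown.

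Ranks are by signal. 5′ ends came from Ensembl release 115 gene models (WBcel235, the coordinates of ce11), and sequences from the RefSeq genome of WBcel235. Trans-splicing removes the first part of many worm transcripts, so annotated 5′ ends can lie downstream of the start of transcription. In "nearest" settings a summit went to the nearest 5′ end among the genes whose window held it. The members and gene lists were chosen with earlier results of these data known. All members are named, with genes sharing their summits, some same-strand neighbours within 1000 bp, and bound genes of a list of 48 other lysosome genes, of which ostm-1 was not matched. Some unbound genes of that list, the peaks inside cpr-6 and hlh-30, the match of summit windows elsewhere in the genome (ungapped, both strands) and the coding-exon count were added after values were seen. No test was run. Window assignment and string search were checked on simulated data. Python 3.11.15, numpy 2.4.6, pandas 2.3.3 and matplotlib 3.10.9 were used.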

Additional observations from a re-analysis of the deposited data

How the results depend on the processing

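The count of 8 bound members was 7 to 9 under other windows, any transcript's 5′ end, interval overlap and the nearest 5′ end alone. It was 7 with replicate 2 left out and 8 with replicate 1 left out. In these settings 5.95% to 10.1% of all genes were bound. Among the 1186 strongest peaks 3 of 32 members were bound (9.38%, against 4.25% of all genes). They were 1 V0, 2 V1 and 0 of 11 lysosomal genes. In the pooled relaxed list 29 were bound (10, 8 and 11), or 90.6% against 36.4% of all genes. A window of 500 bp upstream left 1 of 9 V1 genes, against 6.24% of all genes. Of the 47 other lysosome genes, 6 were bound in the main setting (12.8%, against 7.76% of all genes). Among the strongest peaks 3 were bound (6.38%, against 4.25%), and in the relaxed list 29 (61.7%, against 36.4%). The other settings gave 5 to 7 (10.6% to 14.9%), against 5.95% to 10.1% of all genes. These settings were applied to them after the data were seen. TGACGT was at 1 of 8 member summits (12.5%) within 50 bp or 100 bp, against 8.22% and 13.0% of all final-list peaks. Within 25 bp it was at 0, against 4.30%. TGACGTGG was at 0, against 1.90%, and the control TGCAGT at 2, against 6.58%. No paired analysis was possible because there is 1 group. The unknown depth limits all statements about absent peaks.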
